A study of Mus musculus with 3 samples.

Results

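Matrix metalloproteases (Mmp), the membrane-bound Adam proteases, the secreted Adamts proteases, the Adamtsl proteins and the tissue inhibitors of metalloproteases (Timp) were examined in single cells of mouse subcutaneous fat. The members are every gene whose symbol is one of these 5 stems followed by a number and at most 1 letter, which gave 83 of the 32285 genes in the files: 22 Mmp, 33 Adam, 19 Adamts, 5 Adamtsl and 4 Timp genes. All samples came from male wild-type C57BL/6J mice of 8 weeks, without a treatment or a mutant allele. Stromal vascular cells of the inguinal depot, freed with collagenase for 60 minutes at 37°C, were sorted as negative for CD31 (endothelium) and CD45 (leukocytes), and 3 libraries numbered as replicates were made with a 3′ droplet assay. They are called mice 1, 2 and 3 here, although the labels do not say whether a library held the fat of 1 animal or of several. The paper describes them as biological replicates and counts as many mice as libraries. The fit below treated each library as a block. Unless given without the block, the p-values rest on how much differences between groups of cells varied from library to library. Part of this variation may be technical.

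Metalloproteases of the Mmp class cut collagens, proteoglycans and other matrix proteins, and most are made as inactive precursors that other proteases open. Adam proteases cut receptors and ligands off the cell surface, Adamts proteases trim procollagens and split large proteoglycans such as aggrecan and versican, and Adamtsl proteins share the matrix-binding part of Adamts proteins but lack the protease. Timp proteins bind the active site of these enzymes, and in fat the balance of proteases and inhibitors is known to bear on how the matrix around growing adipocytes is remodelled.

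Gates on the raw counts of unique molecular identifiers (UMIs) were applied to the cells that had over 500 genes detected and under 5% of their UMIs from mitochondrial genes. The progenitor gate required at least 3 UMIs of Dpp4 and Pi16 together and at most 1 of Icam1 and Fabp4. The preadipocyte gate required at least 4 UMIs of Icam1 and Fabp4 and at most 1 of Dpp4. The regulatory gate required at least 1 UMI each of Clec11a and Fmo2 and at most 1 each of Fabp4 and Dpp4. In mice 1, 2 and 3, the order used for all values below, the progenitor gate held 7399, 3169 and 9273 cells, the preadipocyte gate 2278, 1394 and 1889 cells, and the regulatory gate 270, 384 and 404 cells. A further 49, 119 and 96 cells met the conditions of 2 gates and were left out, and 2988, 1348 and 3517 cells met none. Summed levels are given as UMIs per 1000000 UMIs of the gate and mouse (CPM). A 3′ assay counts 1 end of each transcript, so that CPM is not scaled by gene length, and values of different genes are set side by side only as counts of UMIs. A sum does not tell fewer expressing cells from less RNA per cell. The gates rest on 6 genes, none of them a member, and were cut from the same cells in which the members were measured, so that a p-value for a gene that varies with a gate gene is not an error rate for cell types.

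The gates were checked against 5 markers each that the rule did not use. Progenitor markers (Cd55, Wnt2, Anxa3, Sema3c and Limch1) summed to between 2575 and 3658 CPM in the progenitor gate and to at most 313 CPM in the others. Preadipocyte markers (Pparg, Cebpa, Lpl, Plin2 and Cd36) summed to between 3539 and 4212 CPM in the preadipocyte gate and to at most 1445 CPM in the others. Lpl made up most of this sum, with means of 2987 CPM in the preadipocyte gate and 1244 CPM in the regulatory gate. Regulatory markers (F3, Mgp, Gdf10, Meox2 and Igfbp3) summed to between 2055 and 2502 CPM in the regulatory gate and to at most 426 CPM in the others. In mouse 1, however, Igfbp3 was at 54.1 CPM in the regulatory gate and 59.7 CPM in the progenitor gate. Cells of the regulatory gate were shallower, with medians of 4945, 10104.5 and 4575 UMIs a cell against 7329, 12052 and 6690 in the progenitor gate and 8083, 12977 and 7296 in the preadipocyte gate. The 5 stromal markers Pdgfra, Pdgfrb, Ly6a, Cd34 and Col1a1 were detected in each gate, and 5 epithelial markers reached 111 CPM in the regulatory gate of mouse 3 against 0 in mice 1 and 2. The libraries held 94816520, 78108414 and 99328725 UMIs in kept cells, and pairs of libraries shared between 52 and 81 cell barcodes.

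Expression was concentrated in few members. No UMI was counted for 14 of the 83 genes in any kept cell, 11 of them Adam genes, and 49 members passed the filter on low counts. These were 11 of 22 Mmp, 14 of 33 Adam, 15 of 19 Adamts and all Adamtsl and Timp genes. A mean of at least 25 CPM in at least 1 gate was reached by 29 members. By UMIs in all kept cells, Timp2 led with 824020, followed by Mmp2 with 288387, Timp3 with 232079, Adamts5 with 218018, Mmp3 with 207087 and Adamts1 with 161258.

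**Figure D1:**
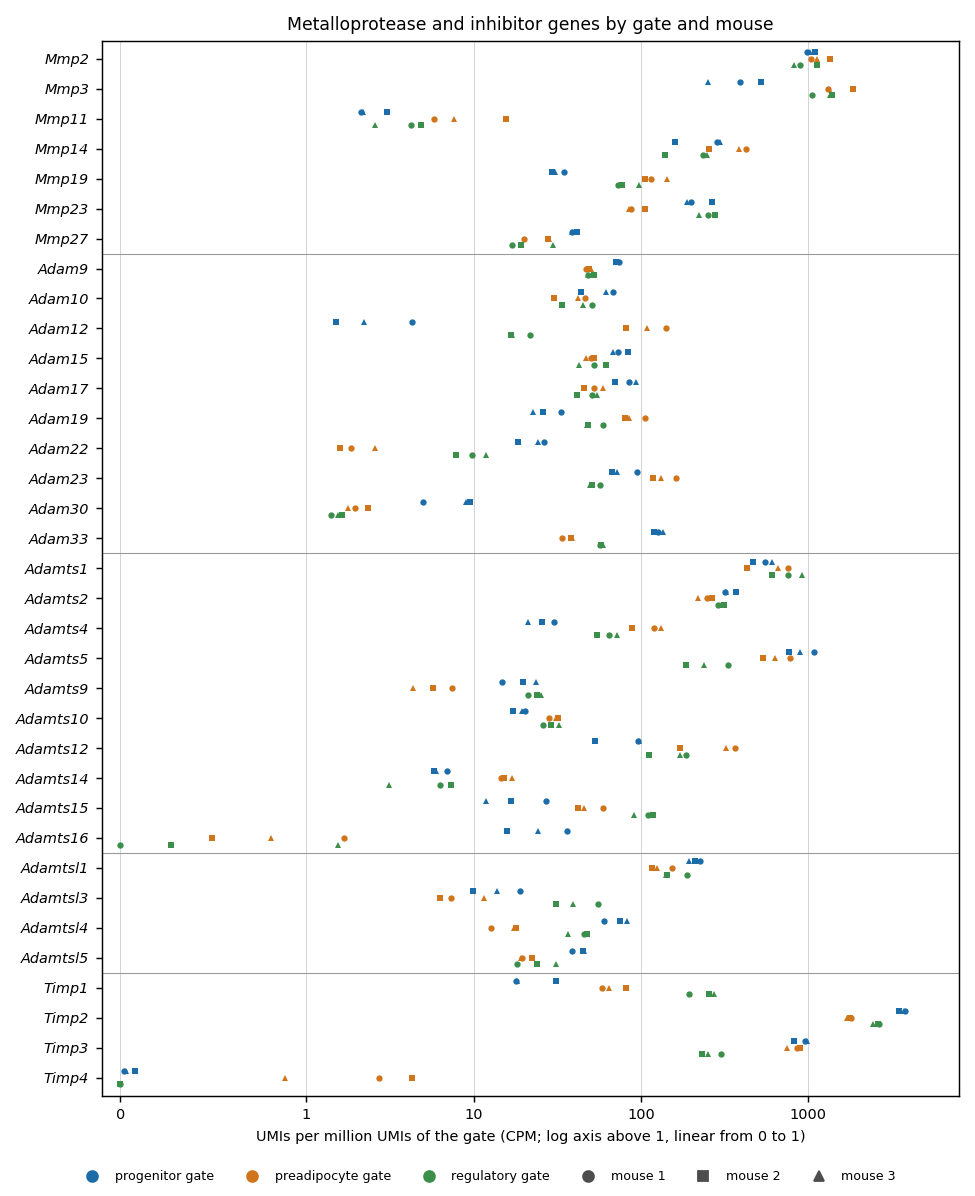
Level of each of the 35 members described by name, in CPM (x axis, logarithmic above 1 and linear below), for the 3 gates (colours) and 3 mice (symbols). The mean levels of Adam12, Adamts16, Adam22, Timp1 and Timp4 differ by more than a factor of 10 between the highest and the lowest gate.

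Collagenase, stromelysin and elastase genes on chromosome 9 showed this contrast at close range. There, 9 of the Mmp members lie within 427 kb of each other (GRCm38, chr9:7272514-7699585). In gene order, the UMIs in all kept cells were 1 for Mmp13, 9 for Mmp12, 0 for Mmp1b, 207087 for Mmp3, 5 for Mmp10, 2 for Mmp8, 9211 for Mmp27, 0 for Mmp20 and 0 for Mmp7. Mmp3, stromelysin-1, and Mmp27 were thus the members of this cluster with more than 9 UMIs. The collagenase genes among the members, Mmp1b, Mmp8 and Mmp13, together stayed at or below 0.0737 CPM in each gate and mouse. A count of 0 allows up to 3 UMIs at these depths, which covers counting error only.

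**Figure D2:**
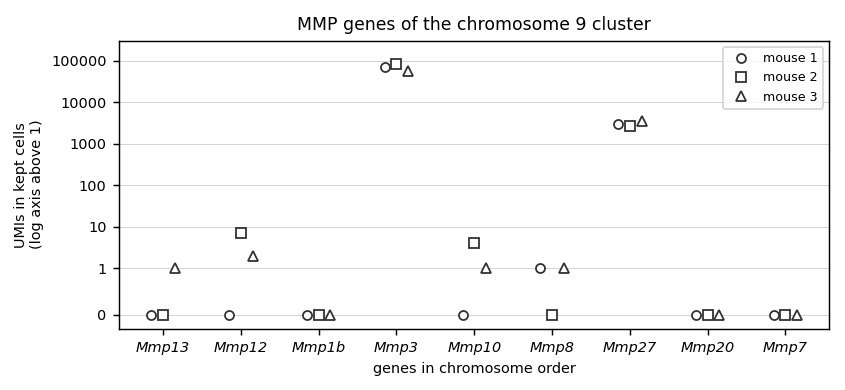
UMIs in all kept cells (y axis, logarithmic above 1) of the 9 Mmp members in the chromosome 9 cluster in chromosome order (x axis), 1 symbol per mouse. Mmp3 reached between 54969 and 82502 UMIs a mouse and Mmp27 between 2679 and 3476, while no other gene shown passed 7 UMIs in a mouse.

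The sequences before the start sites of 4 of these genes are shown because the neighbours Mmp10 and Mmp13, with 5 and 1 UMIs, carry the same pair of short motifs as Mmp3. Each is the 250 bases before the start in RefSeq (GRCm38.p6, plus strand, 5′ to 3′), with the AP-1 letters TGANTCA and the TATA letters TATAAA in capitals; both strands were searched, and these motifs cannot overlap.
Mmp3, chr9:7445572-7445821: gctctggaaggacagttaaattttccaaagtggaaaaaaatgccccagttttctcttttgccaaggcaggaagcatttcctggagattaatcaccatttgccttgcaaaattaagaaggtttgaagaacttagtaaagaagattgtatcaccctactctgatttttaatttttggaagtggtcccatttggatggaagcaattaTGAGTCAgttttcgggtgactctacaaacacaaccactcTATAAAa
Mmp10, chr9:7502092-7502341: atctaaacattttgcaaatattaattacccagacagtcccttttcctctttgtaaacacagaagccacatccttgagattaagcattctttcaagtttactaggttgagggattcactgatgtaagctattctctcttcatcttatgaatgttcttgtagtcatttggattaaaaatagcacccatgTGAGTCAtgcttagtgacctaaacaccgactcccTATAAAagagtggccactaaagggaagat
Mmp13, chr9:7272264-7272513: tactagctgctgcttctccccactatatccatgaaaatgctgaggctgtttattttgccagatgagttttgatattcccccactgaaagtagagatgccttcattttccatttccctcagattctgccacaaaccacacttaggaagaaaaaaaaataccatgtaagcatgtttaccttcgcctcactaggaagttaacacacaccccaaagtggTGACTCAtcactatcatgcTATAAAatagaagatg
Mmp27, chr9:7571146-7571395: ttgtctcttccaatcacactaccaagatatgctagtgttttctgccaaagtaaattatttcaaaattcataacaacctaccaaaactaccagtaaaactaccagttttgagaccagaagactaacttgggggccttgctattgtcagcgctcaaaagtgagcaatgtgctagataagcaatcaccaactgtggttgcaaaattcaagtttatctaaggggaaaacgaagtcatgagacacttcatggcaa
The AP-1 letters lay 46, 63 and 35 bases before the start of Mmp3, Mmp10 and Mmp13, and the window of Mmp27 held neither motif. Both motifs were also held by Mmp1b, Mmp7 and Mmp20 of the same cluster, which had no UMI and are not shown. Among 27025 promoters of this length, 6.87% held the AP-1 letters and 13% the TATA letters. Of the 52 members with an entry in this table, 9 held the AP-1 letters and 12 the TATA letters, and of those with the AP-1 letters Mmp3 was the one that passed the filter on low counts. A match describes the letters and is not a measured binding site.

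Genes that respond to tissue dissociation, including Fos and Jun, which encode AP-1 subunits, differed between the gates. A list of 20 such genes summed to 23458, 21678 and 19549.7 CPM in the progenitor gate, to 36113, 29092 and 34796 CPM in the preadipocyte gate, and to 32305, 28747 and 32492 CPM in the regulatory gate, so that the progenitor gate was lowest in each mouse. Not every gene of the list followed this order. By mean, Nr4a1, Ier3 and Nfkbia were highest in the progenitor gate, and Myc was not lowest there. The part of dissociation in the differences below was not tested, and the values in the cells with the lower share of these UMIs are given where they changed a result. Those cells lay at or below the median share of all kept cells of a mouse. The gates therefore need not have lost the same part of their cells.

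In the first comparison, the progenitor gate was set against the preadipocyte gate. Among the named members above 5 CPM, the largest differences were in Adam12, which was 40.3-fold lower in the progenitor gate, and in Adamts16, which was 26.3-fold higher there (4.72 on the log2 scale, and 3.75 with each cell thinned to 3000 UMIs). For differences at 3000 UMIs a cell, shallower cells were left out and the gates were applied again to the thinned counts. Depth and choice of cells therefore changed together in them. Of the 49 members tested, 40 passed edgeR's quasi-likelihood test at an adjusted p under 0.05, 21 higher and 19 lower in the progenitor gate. Of all 13258 genes tested, 56.3% passed, 29.2% higher and 27.2% lower. The median size of the difference was 1.20 on the log2 scale over the members and 0.35 over all genes, and the median difference was 0.07 against -0.00. The gates were cut from the same cells, and the 3 comparisons share their sums, so that they are not independent of each other. Differences between gates are given below as log2 fold changes of the first gate over the second with their standard errors (SE). Each SE was derived as the size of the log2 fold change divided by the square root of edgeR's F statistic. It is therefore approximate, and for genes with a few UMIs in a gate, such as Adamts16 and Timp4, it understates the counting error.

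In the second comparison, the regulatory gate was set against the preadipocyte gate. Among the named members, Adamtsl3, Adam22 and Adamts9 led those that were higher in the regulatory gate, and Adam12, Timp3 and Adamts14 led those that were lower and had UMIs in it. At 3000 UMIs a cell the difference in Adam22 was 1.52 in place of 2.37. Here 28 of the 49 members passed the test, 13 higher and 15 lower in the regulatory gate, against 25.7% of all genes, 12.3% higher and 13.4% lower. The median size of the difference was 0.74 over the members and 0.28 over all genes on the log2 scale, with medians of -0.19 and -0.04.

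In the third comparison, the regulatory gate was set against the progenitor gate. Timp1, Adam12 and Adamts15 led the rises in the regulatory gate among the named members, with Adam12 close in that gate to its level in cells with endothelial or leukocyte UMIs (14.5, 40.5 and 29.2 CPM), and Adamts16, Adam30 and Adamts5 the falls. Here 31 of the 49 members passed the test, 14 higher and 17 lower in the regulatory gate, against 43% of all genes, 19% higher and 24% lower. The median size of the difference was 0.90 over the members and 0.39 over all genes on the log2 scale, with medians of -0.15 and -0.05. The first median became -0.08 when 2 genes without a UMI in the regulatory gate were set at their bound. Of the 49 members, 17 passed in each comparison, 21 in 2, 6 in 1 and 5 in none. The same count was not made over all genes, so that these numbers do not set the members apart.

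**Figure D3:**
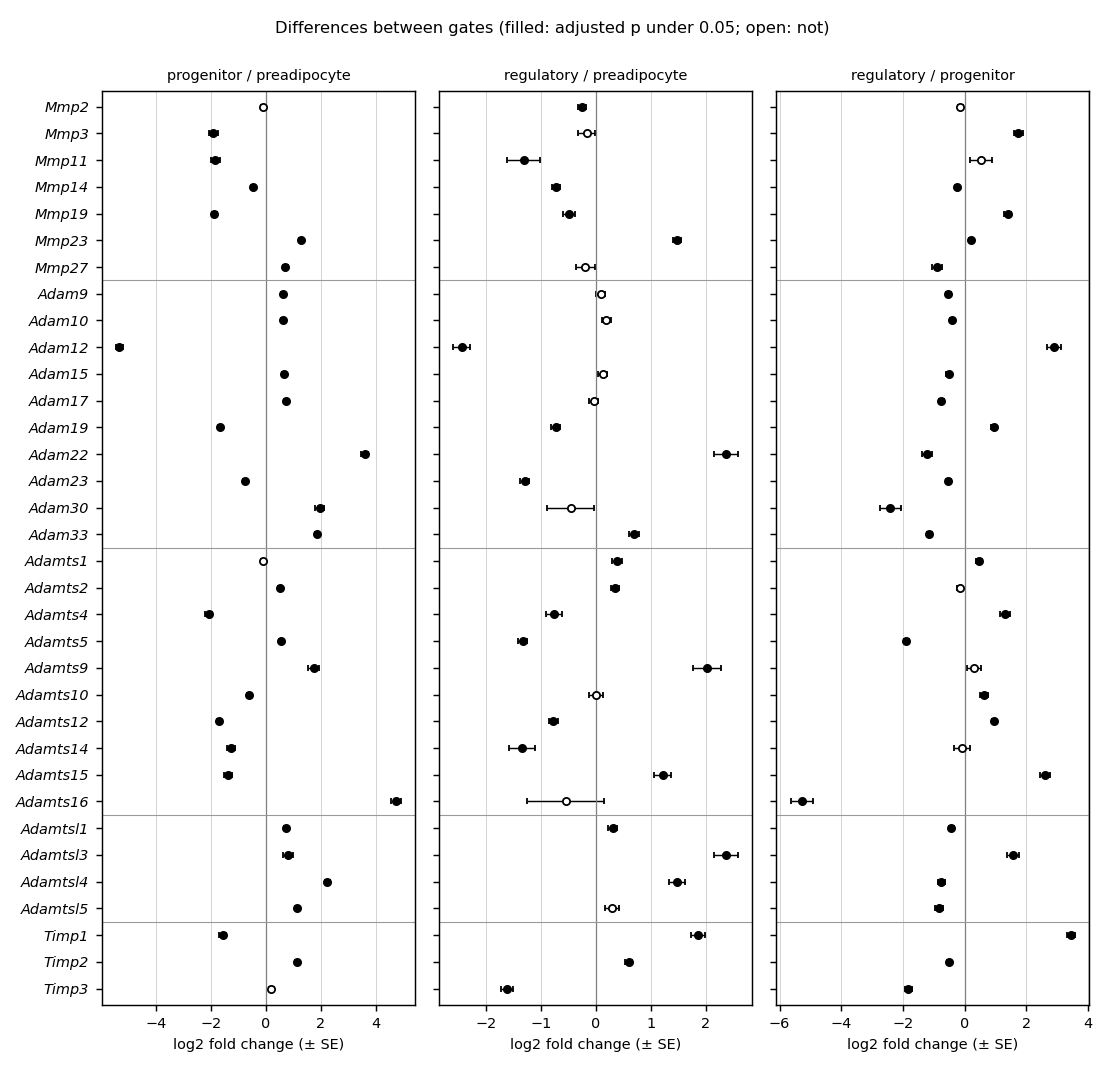
Log2 fold changes between gates (x axes, points with standard errors) of the named members other than Timp4, which had no UMI in the regulatory gate; each panel has its own x range. Filled points passed edgeR's test at an adjusted p under 0.05; Adam12 lies at -5.33 and Adamts16 at 4.72 in the left panel, and Timp1 at 3.45 in the right panel.

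The 4 inhibitor genes differed in which gate was highest. Timp1, a secreted inhibitor of most Mmp enzymes, was at 17.9, 31.0 and 18.1 CPM in the progenitor gate, at 58.4, 81.8 and 64.2 in the preadipocyte gate and at 193, 255 and 273 in the regulatory gate. The regulatory gate was highest and the progenitor gate lowest in each mouse, without overlap between gates. On the log2 scale Timp1 was 3.45 ± 0.13 (SE) above the progenitor gate in the regulatory gate (edgeR adjusted p = 1.46e-09) and 1.87 ± 0.13 (SE) above the preadipocyte gate (edgeR adjusted p = 4.74e-07). In the cells with the lower dissociation share the second of these differences was 1.21, and the difference between the progenitor and preadipocyte gates was -2.37 in place of -1.58. After each cell was thinned to 3000 UMIs, Timp1 was found in 29.7%, 42.1% and 45.4% of the cells in the regulatory gate and in 4.48%, 6.92% and 4.40% in the progenitor gate. Without thinning these shares were 45.2%, 70.6% and 55.4%, and 10.5%, 19.7% and 8.92%. Of the 22, 31 and 8 cells with at least 3 UMIs of Pecam1, Cdh5, Ptprc and Tyrobp together and none of Pdgfra, which serve here as endothelial or leukocyte cells, 0 of 22 cells of mouse 1, which allows a share of up to 13.6%, 2 of 31 cells of mouse 2 (6.45%) and 2 of 8 cells of mouse 3 (25%) had one.

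Timp2, which can bind Mmp14 and pro-Mmp2 in the complex that activates Mmp2, was highest in the progenitor gate. It was at 3764, 3503 and 3746 CPM in the progenitor gate, 1801, 1775 and 1696 in the preadipocyte gate and 2639, 2601 and 2440.0 in the regulatory gate. The progenitor gate was highest, the preadipocyte gate lowest, and no values overlapped. The difference was 1.12 ± 0.07 (SE) on the log2 scale between the progenitor and preadipocyte gates (edgeR adjusted p = 2.42e-08) and -0.52 ± 0.07 (SE) between the regulatory and progenitor gates (edgeR adjusted p = 4.33e-05).

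Timp3, which stays bound to the matrix and also inhibits Adam17 and aggrecan-cleaving Adamts enzymes, was low in the regulatory gate. Its levels were 299.8, 233 and 253 CPM there, against 955, 824 and 985 in the progenitor gate and 857, 888 and 748 in the preadipocyte gate. The regulatory values lay below all others, and the other gates overlapped. In the few cells with endothelial or leukocyte UMIs, Timp3 was at 1393, 1703 and 379 CPM. Without every cell that had a UMI of Ptprc, Tyrobp, Pecam1, Cdh5 or Rgs5, the preadipocyte gate was at 855, 880 and 749 CPM. The regulatory gate differed by -1.63 ± 0.10 (SE) on the log2 scale from the preadipocyte gate (edgeR adjusted p = 3.4e-07) and -1.83 ± 0.10 (SE) from the progenitor gate (edgeR adjusted p = 5.08e-08). Between the progenitor and preadipocyte gates the difference was 0.20 ± 0.10 (SE) (edgeR adjusted p = 0.0938), and the adjusted p was 0.0185 without mouse 2, 0.00731 without the filter on low counts and 0.0400 with the cells in 2 gates kept.

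Timp4 was rare, with 168 UMIs in all kept cells. It was at 2.72, 4.27 and 0.884 CPM in the preadipocyte gate and at 0.0186, 0.0782 and 0.0324 CPM in the progenitor gate, a log2 difference of -5.68 ± 0.45 (SE) (edgeR adjusted p = 1.75e-06). No UMI was counted in the regulatory gate, so that the preadipocyte gate was at least 6.55-fold higher, with a floor of 3 counts over the gate. In the 22, 31 and 8 cells with endothelial or leukocyte UMIs it reached 449.9, 486 and 29.2 CPM. The 5 endothelial markers Pecam1, Cdh5, Cldn5, Egfl7 and Kdr summed to 31.2, 55.0 and 3.91 CPM in the preadipocyte gate and to between 2.55 and 8.54 CPM in the others, and 5 of 5 were above 0 there. The 5 mural (vessel wall) markers Rgs5, Myh11, Notch3, Kcnj8 and Acta2 summed to 48.1, 30.9 and 43.3 CPM there and to between 7.43 and 22.2 CPM in the others. Of these, Kcnj8 was by mean lowest in the preadipocyte gate. Fabp4, a gene of this gate, is also known from capillary endothelium. It was at 25788, 26723 and 845 CPM in the cells with endothelial or leukocyte UMIs, against 1477, 1334 and 1297 CPM in the preadipocyte gate. When cells with a UMI of Ptprc, Tyrobp, Pecam1, Cdh5 or Rgs5 were left out, the UMIs of Timp4 in the preadipocyte gate went from 50, 78 and 12 to 0, 5 and 6, and the gene no longer passed the filter on low counts.

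**Figure D4:**
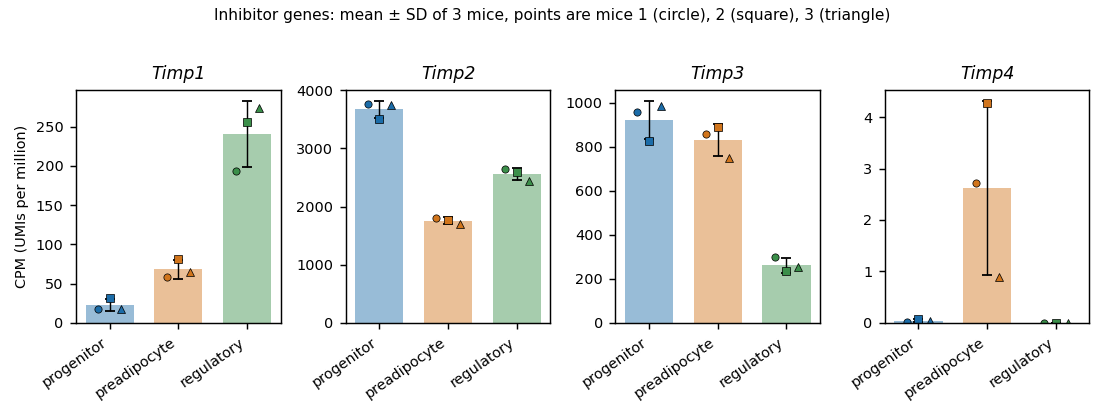
Levels of the 4 Timp genes in each gate (bars: mean of 3 mice with SD; points: mice), in CPM on linear axes that start at 0. Timp1 is highest in the regulatory gate, Timp2 in the progenitor gate, Timp3 is lowest in the regulatory gate, and Timp4 stays below 5 CPM.

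Summed over the family, the Timp genes took 4737, 4358 and 4749 CPM in the progenitor gate, 2719, 2749 and 2509 CPM in the preadipocyte gate and 3132, 3089 and 2966 CPM in the regulatory gate. Set against all Mmp, Adam and Adamts UMIs, this was 1.00, 0.988 and 1.07 Timp UMIs for each UMI of these families in the progenitor gate. The families include Adam22 and Adam23, whose proteins lack protease activity. The ratio was 0.451, 0.473 and 0.437 in the preadipocyte gate and 0.662, 0.636 and 0.591 in the regulatory gate. The 3 gates did not overlap in this ratio, which is a description of messenger counts. Timp2 supplied 79.6% ± 0.759 (SD, n = 3) of the Timp UMIs in the progenitor gate, 66.1% ± 1.52 in the preadipocyte gate and 83.6% ± 1.13 in the regulatory gate. Timp1 supplied 0.490% ± 0.191, 2.56% ± 0.413 and 7.88% ± 1.56 in the same order.

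Among the gelatinases, Mmp2, which cuts denatured collagen and basement membrane collagen, was high in all gates. It was at 982, 1102 and 1025 CPM in the progenitor gate, 1031, 1347 and 1120.0 in the preadipocyte gate and 887, 1121 and 821 in the regulatory gate. All gates overlapped. The difference between the regulatory and preadipocyte gates, -0.26 ± 0.08 (SE), passed edgeR's test (adjusted p = 0.028) but not without mouse 2 (0.0965), without mouse 3 (0.157), in cells with the lower dissociation share (0.3) or without the mouse as a block (0.459). Mmp9, the other gelatinase, had 52 UMIs in all kept cells, 42 of them in mouse 2.

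Mmp3, which cuts proteoglycans and opens the precursors of other Mmp enzymes, was at 393, 521 and 253 CPM in the progenitor gate, 1310.0, 1852 and 1327 in the preadipocyte gate and 1053, 1379.9 and 1351 in the regulatory gate. Each progenitor value lay below all values of the other gates. The progenitor gate differed by -1.91 ± 0.15 (SE) on the log2 scale from the preadipocyte gate (edgeR adjusted p = 3.92e-07), and the regulatory gate was 1.74 ± 0.15 (SE) above the progenitor gate (edgeR adjusted p = 2.12e-06). Between the regulatory and preadipocyte gates the value was -0.17 ± 0.15 (SE) (edgeR adjusted p = 0.46), and it passed edgeR's test without mouse 3 (adjusted p = 0.0226) and without the filter on low counts (0.0312). In cells with the lower dissociation share the first difference was as large, at -2.16. Thinned to 3000 UMIs, 33.3%, 34.4% and 24.9% of the cells in the progenitor gate had a UMI of Mmp3, against 74.9%, 84.2% and 79.0% in the preadipocyte gate. Without thinning the shares were 47.4%, 54.1% and 36.0% against 85.3%, 92.3% and 88.0%, and 9.09%, 9.68% and 25% of the 22, 31 and 8 cells with endothelial or leukocyte UMIs, whose median depth was 2268.5, 2015 and 4903 UMIs. Without Mmp3 the Mmp genes together took 1545, 1606 and 1585 CPM in the progenitor gate and 1687, 1863 and 1772 CPM in the preadipocyte gate.

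Mmp11, stromelysin-3, and Mmp19, which cuts basement membrane proteins, had their highest level in the preadipocyte gate. Mmp19 was at 115, 106 and 143 CPM there, against 34.6, 29.3 and 30.8 in the progenitor gate and 73.0, 77.1 and 97.1 in the regulatory gate. The 3 gates did not overlap. The progenitor gate differed by -1.88 ± 0.09 (SE) from the preadipocyte gate (edgeR adjusted p = 2.89e-09) and the regulatory gate -0.49 ± 0.10 (SE) (edgeR adjusted p = 0.00431, and 0.0785 without the mouse as a block). Mmp11 was at 5.81, 15.5 and 7.59 CPM in the preadipocyte gate, where mouse 2 was high, and at 2.12, 3.05 and 2.17 in the progenitor gate, with a difference of -1.84 ± 0.17 (SE) (edgeR adjusted p = 1.7e-06). In the regulatory gate Mmp11 was at 4.21, 4.87 and 2.58 CPM, -1.32 ± 0.30 (SE) from the preadipocyte gate (edgeR adjusted p = 0.00669). This call was lost without mouse 2 (-0.96, adjusted p = 0.158 in edgeR), without the block (-1.22, 0.158) and in cells with the lower dissociation share (-1.03, 0.175).

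Mmp14, the membrane-anchored activator of pro-Mmp2, was at 285, 159.8 and 298 CPM in the progenitor gate, 422, 255 and 385 in the preadipocyte gate and 236, 139 and 249.5 in the regulatory gate. Mouse 2 was lowest in every gate, and within each mouse the preadipocyte gate was highest. The differences from the preadipocyte gate were -0.48 ± 0.07 (SE) for the progenitor gate (edgeR adjusted p = 8.14e-05) and -0.73 ± 0.08 (SE) for the regulatory gate (edgeR adjusted p = 2.16e-05). Without the mouse as a block these adjusted p were 0.233 and 0.137. The regulatory gate differed by -0.25 ± 0.08 (SE) from the progenitor gate (edgeR adjusted p = 0.0215), a call that was lost without any 1 of the mice (adjusted p of 0.104, 0.0774 and 0.0550), without the block (0.548), with stricter gates (0.112), at 3000 UMIs a cell (0.0589) and in cells with the lower dissociation share (0.160). The difference itself stayed between -0.21 and -0.27 in these settings.

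Mmp23 and Mmp27 were higher in the progenitor than in the preadipocyte gate. Mmp23, a membrane-held member of the class without the usual hemopexin part, was at 199, 266 and 188 CPM in the progenitor gate, 87.6, 105 and 84.3 in the preadipocyte gate and 249.9, 276 and 224 in the regulatory gate. The preadipocyte values lay below all others, and the regulatory gate was 1.48 ± 0.07 (SE) above it (edgeR adjusted p = 5.85e-08). The regulatory and progenitor gates overlapped, with a difference of 0.20 ± 0.07 (SE) (edgeR adjusted p = 0.0415) that was lost without mouse 1 (0.138), without mouse 3 (0.193) and without the block (0.502). The call was also lost without the filter on low counts (0.185), at 3000 UMIs a cell (0.0630) and with the cells in 2 gates kept (0.103). Mmp27 was at 38.7, 41.6 and 38.7 CPM in the progenitor gate, 20.1, 27.8 and 28.4 in the preadipocyte gate and 16.8, 19.2 and 30.0 in the regulatory gate, and it was higher in the progenitor gate by 0.71 ± 0.10 (SE) (edgeR adjusted p = 8.34e-05). Mmp28, named after its values were seen and below 2 CPM in each gate, was at 1.90, 1.20 and 1.62 CPM in the preadipocyte gate and without a UMI in the regulatory gate, which made the preadipocyte gate at least 3.70-fold higher.

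The Adam genes fell into a group with small differences and a group with large ones. The sheddases Adam10, which cuts Notch receptors, and Adam17, which releases tumour necrosis factor, and the related Adam9 and Adam15 were all highest in the progenitor gate. Adam17 was at 84.7, 69.6 and 93.0 CPM in the progenitor gate, 52.3, 45.4 and 59.0 in the preadipocyte gate and 51.3, 41.4 and 54.8 in the regulatory gate. The progenitor gate did not overlap the others, and it was 0.71 ± 0.06 (SE) above the preadipocyte gate (edgeR adjusted p = 4.08e-07). The difference between the same gates was 0.62 ± 0.06 (SE) for Adam9, 0.60 ± 0.06 (SE) for Adam10 and 0.64 ± 0.06 (SE) for Adam15, with edgeR adjusted p of at most 2.36e-06. None of these 4 genes passed the test between the regulatory and preadipocyte gates, with values between -0.05 and 0.19. Against the progenitor gate, the regulatory gate differed by -0.41 ± 0.08 (SE) for Adam10 and -0.51 ± 0.08 (SE) for Adam15 (edgeR adjusted p = 0.000923 and 0.000271). Those calls were lost without the mouse as a block (0.156 and 0.0514), at 3000 UMIs a cell (0.198 and 0.0722) and in cells with the lower dissociation share (0.187 and 0.175).

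Adam12, also called meltrin alpha and known from fusing muscle cells and from fat growth in mice, had the largest difference between the preadipocyte and progenitor gates among the named members above 5 CPM. It was at 141, 81.2 and 108 CPM in the preadipocyte gate, 21.8, 16.8 and 17.0 in the regulatory gate and 4.28, 1.51 and 2.20 in the progenitor gate. The gates did not overlap. The progenitor gate differed by -5.33 ± 0.12 (SE) on the log2 scale from the preadipocyte gate (edgeR adjusted p = 3.41e-11) and the regulatory gate -2.45 ± 0.16 (SE) (edgeR adjusted p = 3.2e-07). With stricter gates these values were -6.22 and -3.06. At 3000 UMIs a cell, 31.9%, 19.6% and 26.0% of the cells in the preadipocyte gate had a UMI of Adam12, and 0.952%, 0.419% and 0.579% of those in the progenitor gate. Without thinning the shares were 58.9%, 54.7% and 47.1% against 2.35%, 1.67% and 1.24%, and 9.26%, 11.7% and 6.19% in the regulatory gate. Of the 22, 31 and 8 cells with endothelial or leukocyte UMIs, which held 7 UMIs of Adam12 in all, 4.55%, 9.68% and 12.5% had one, so that the progenitor shares, and the regulatory share of mouse 3, were not above this level. Among the 8, 9 and 6 of these cells that could be thinned none had a UMI, which allows shares of up to 37.5%, 33.3% and 50%.

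Adam19, meltrin beta, had the same order of gates with smaller differences. It was at 105, 79.8 and 84.4 CPM in the preadipocyte gate, 59.7, 48.1 and 47.5 in the regulatory gate and 33.1, 26.1 and 22.5 in the progenitor gate, without overlap, and the progenitor gate differed by -1.67 ± 0.07 (SE) from the preadipocyte gate (edgeR adjusted p = 6.72e-10). Adam33 had the reverse order, with 127, 120.1 and 136 CPM in the progenitor gate, 56.9, 57.6 and 58.9 in the regulatory gate and 33.6, 38.3 and 38.6 in the preadipocyte gate, and a difference of 1.85 ± 0.07 (SE) (edgeR adjusted p = 4.27e-10).

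Adam22 and Adam23 encode Adam proteins without protease activity that bind secreted Lgi proteins, and they differed in which gate was highest. Adam22 was at 26.4, 18.5 and 24.2 CPM in the progenitor gate, 1.85, 1.59 and 2.58 in the preadipocyte gate and 9.83, 7.84 and 11.9 in the regulatory gate, without overlap. It was 3.59 ± 0.13 (SE) higher in the progenitor than in the preadipocyte gate (edgeR adjusted p = 4.38e-10), and 2.93 at 3000 UMIs a cell. Adam23 was at 94.9, 66.7 and 71.7, 163, 117 and 131 and 56.9, 51.1 and 49.6 CPM in the same order of gates, with log2 differences from the preadipocyte gate of -0.77 ± 0.06 (SE) in the progenitor gate (edgeR adjusted p = 3.92e-07) and -1.30 ± 0.08 (SE) in the regulatory gate (edgeR adjusted p = 2.7e-07). Adam30 was at 5.00, 9.54 and 8.97 CPM in the progenitor gate and at or below 2.35 CPM in each mouse of the others, a difference of 1.95 ± 0.17 (SE) from the preadipocyte gate (edgeR adjusted p = 1.07e-06).

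Of the Adamts enzymes that split large proteoglycans, Adamts5, a main aggrecan-cleaving enzyme, and Adamts1 lie side by side on chromosome 16, and their highest level was in different gates. Adamts5 was at 1081, 769 and 889 CPM in the progenitor gate, 776, 538 and 628 in the preadipocyte gate and 331, 186 and 238 in the regulatory gate. The regulatory values lay below all others, and in each mouse the progenitor gate was highest. The regulatory gate differed by -1.89 ± 0.08 (SE) on the log2 scale from the progenitor gate (edgeR adjusted p = 4.72e-09) and -1.34 ± 0.08 (SE) from the preadipocyte gate (edgeR adjusted p = 2.32e-07). The difference between the progenitor and preadipocyte gates, 0.55 ± 0.07 (SE), had an edgeR adjusted p of 4.28e-05 with the mouse as a block and of 0.0529 without it.

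Adamts1 was at 548, 470.1 and 610.3 CPM in the progenitor gate, 751, 428 and 658 in the preadipocyte gate and 756, 611 and 914 in the regulatory gate. The regulatory gate was highest in each mouse, and mouse 2 was lowest in each gate. In the few cells with endothelial or leukocyte UMIs, Adamts1 was at 1190, 786 and 379 CPM. The preadipocyte gate was at 746, 426 and 655 CPM without every cell that had a UMI of Ptprc, Tyrobp, Pecam1, Cdh5 or Rgs5. The regulatory gate was 0.47 ± 0.10 (SE) above the progenitor gate (edgeR adjusted p = 0.00186, and 0.113 without the block) and 0.38 ± 0.10 (SE) above the preadipocyte gate (edgeR adjusted p = 0.0128). The second call was lost without mouse 2 (0.107), without mouse 3 (0.148), without the block (0.320) and in cells with the lower dissociation share, where the difference was 0.11 (0.667).

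Adamts15 stood out in the regulatory gate, with 110.2, 118 and 90.4 CPM against 59.0, 42.3 and 45.8 in the preadipocyte gate and 26.9, 16.7 and 11.9 in the progenitor gate. The gates did not overlap, and the regulatory gate was 2.61 ± 0.16 (SE) above the progenitor gate (edgeR adjusted p = 1.04e-07) and 1.22 ± 0.16 (SE) above the preadipocyte gate (edgeR adjusted p = 0.000126). Adamts4 was highest in the preadipocyte gate, at 119.9, 88.2 and 132 CPM against 64.6, 54.4 and 72.3 in the regulatory gate and 30.3, 25.5 and 21.2 in the progenitor gate. Its differences from the preadipocyte gate were -2.08 ± 0.12 (SE) for the progenitor gate (edgeR adjusted p = 2.6e-08) and -0.77 ± 0.15 (SE) for the regulatory gate (edgeR adjusted p = 0.00285), the latter -1.55 in cells with the lower dissociation share.

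Adamts9 was low in the preadipocyte gate, with 7.44, 5.74 and 4.35 CPM against 14.7, 19.7 and 23.6 in the progenitor gate and 21.1, 24.1 and 25.3 in the regulatory gate. Here the regulatory gate was 2.02 ± 0.26 (SE) above the preadipocyte gate (edgeR adjusted p = 0.000109), and 1.00 in cells with the lower dissociation share, where the call was lost (0.129). Adamts9 was also at 377, 349 and 87.5 CPM in the few cells with endothelial or leukocyte UMIs, and the preadipocyte gate was at 4.70, 3.35 and 4.24 CPM without every cell that had a UMI of Ptprc, Tyrobp, Pecam1, Cdh5 or Rgs5.

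Among the enzymes that remove the amino-terminal propeptide of procollagens, Adamts2 was at 316, 372 and 323 CPM in the progenitor gate, 249, 268 and 220.5 in the preadipocyte gate and 287, 314 and 301 in the regulatory gate. The preadipocyte gate was lowest in each mouse, with a difference of 0.51 ± 0.07 (SE) to the progenitor gate (edgeR adjusted p = 3.33e-05). In the fit, the regulatory gate was 0.34 ± 0.07 (SE) above the preadipocyte gate (edgeR adjusted p = 0.00379), a call lost without mouse 3 (0.058), without the block (0.191) and in cells with the lower dissociation share (0.252). Adamts14, which acts on the same substrates, was instead highest in the preadipocyte gate, at 14.6, 15.2 and 16.9 CPM against 6.90, 5.76 and 5.96 and 6.32, 7.30 and 3.10 in the progenitor and regulatory gates. The differences were -1.27 ± 0.14 (SE) and -1.35 ± 0.24 (SE) (edgeR adjusted p = 8.58e-06 and 0.00137).

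Adamts16, a member of the family known from kidney and gonad, was highest in the progenitor gate. It was at 36.0, 15.8 and 24.2 CPM there, 1.68, 0.492 and 0.811 in the preadipocyte gate and 0, 0.270 and 1.55 in the regulatory gate, where 4 UMIs were counted in all. The progenitor gate was 4.72 ± 0.19 (SE) above the preadipocyte gate (edgeR adjusted p = 6.72e-10), and 3.75 at 3000 UMIs a cell. By the same measure, the regulatory gate differed by -5.28 ± 0.37 (SE) from the progenitor gate (edgeR adjusted p = 2.99e-07), a value that rests on these 4 UMIs. It was -4.68 without mouse 1, -6.74 without mouse 3, -6.28 with stricter gates, -4.35 with cells in 2 gates kept, -10.5 at 3000 UMIs a cell and -11.1 in cells with the lower dissociation share. Even in the progenitor gate, 9.96%, 4.25% and 6.61% of the cells thinned to 3000 UMIs had a UMI of it (19.3%, 14.3% and 12.6% without thinning).

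Adamts12, which cuts cartilage oligomeric matrix protein, was at 363, 171 and 324 CPM in the preadipocyte gate, 185, 112 and 172 in the regulatory gate and 96.3, 52.9 and 97.3 in the progenitor gate. Mouse 2 was lowest in each gate, and the preadipocyte gate was highest in each mouse. The progenitor gate differed by -1.73 ± 0.07 (SE) from it (edgeR adjusted p = 9.24e-10) and the regulatory gate -0.78 ± 0.08 (SE) (edgeR adjusted p = 1.34e-05, and 0.115 without the block). Adamts10, a fibrillin-binding member, was at 20.2, 17.2 and 19.5, 28.2, 32.0 and 30.9 and 26.0, 28.9 and 32.5 CPM in the progenitor, preadipocyte and regulatory gates, with a difference of -0.62 ± 0.08 (SE) between the progenitor and preadipocyte gates (edgeR adjusted p = 3.67e-05).

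Of the 5 Adamtsl genes, 4 passed the test between the progenitor and preadipocyte gates, and these 4 were higher in the progenitor gate, where 56.3% of all genes passed and 29.2% were higher. Adamtsl4, a fibrillin-binding protein known from the suspension of the lens, was at 60.1, 74.8 and 82.1 CPM in the progenitor gate, 12.7, 17.8 and 17.5 in the preadipocyte gate and 45.6, 47.6 and 36.7 in the regulatory gate. The gates did not overlap, and the progenitor gate was 2.23 ± 0.10 (SE) above the preadipocyte gate (edgeR adjusted p = 1.6e-09). Adamtsl5 differed between the same gates by 1.13 ± 0.08 (SE) (edgeR adjusted p = 1.72e-07) and Adamtsl1 by 0.74 ± 0.07 (SE) (edgeR adjusted p = 2.1e-06).

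Adamtsl3 was highest in the regulatory gate, with 55.5, 31.1 and 39.3 CPM against 19.0, 9.91 and 13.7 in the progenitor gate and 7.28, 6.29 and 11.6 in the preadipocyte gate. All regulatory values lay above the others, with a difference of 2.37 ± 0.21 (SE) from the preadipocyte gate (edgeR adjusted p = 5.74e-06), and 3.11 at 3000 UMIs a cell. Adamtsl1 was 0.31 ± 0.08 (SE) higher in the regulatory than in the preadipocyte gate (edgeR adjusted p = 0.015), a call lost without mouse 2 (0.0613), without mouse 3 (0.0579), without the block (0.224) and in cells with the lower dissociation share (0.223). Its difference between the regulatory and progenitor gates, -0.44 ± 0.08 (SE), had an edgeR adjusted p of 0.000775, of 0.0501 without the block and of 0.0934 at 3000 UMIs a cell.

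The other 14 tested members, Mmp28 among them, stayed below 7 CPM in each gate and mouse. Adamts17 was at 1.30, 1.09 and 2.80 CPM in the preadipocyte gate and 0.0372, 0.0782 and 0.130 in the progenitor gate. It was chosen for mention after its values were seen, as was Adamts19, whose 6.68, 0.547 and 0.442 CPM in the preadipocyte gate came mostly from mouse 1.

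Within a gate, some members followed the dissociation share and others did not. Unlike the cells with the lower dissociation share above, the cells of each gate and mouse were divided here at their own median share of UMIs in the dissociation list. CPM above the median was divided by CPM below it. Of 34 named members, 11 were higher and 11 lower above the median in all 3 mice of the progenitor gate, 5 and 15 in the preadipocyte gate, and 1 and 9 in the regulatory gate. The 9 include Adamts16, which had no UMI in either part of the regulatory gate of mouse 1 and was lower in mice 2 and 3 only. Over the 13258 genes tested, 39.7% were higher and 17.8% lower in all mice of the progenitor gate, 23.9% and 19% in the preadipocyte gate, and 13.3% and 12.6% in the regulatory gate. Timp1 had ratios of 0.472, 0.324 and 0.383 in the preadipocyte gate and of 0.840, 0.597 and 1.20 in the progenitor gate. In the regulatory gate its ratios were 0.796, 0.773 and 0.586. Adamts4 had 0.507, 0.331 and 0.443 in the preadipocyte gate, and Adamts9 had 0.312, 0.3 and 0.325 in the progenitor gate. In the cells with more dissociation UMIs, Timp1 was thus lower in all 3 mice of the preadipocyte and regulatory gates. So were Adamts4 in the preadipocyte gate and Adamts9 in the progenitor gate. The part of dissociation in the order of the gates was not tested. In the regulatory gate Adamts9 had ratios of 1.21, 1.50 and 0.692, and Adam19 had 1.39, 1.09 and 0.843, without 1 direction. Adam19 was higher above the median in the other gates, with ratios of 1.45, 1.36 and 1.78 in the progenitor gate and 1.26, 1.31 and 1.47 in the preadipocyte gate. Mmp3 had ratios of 1.17, 1.08 and 1.26 in the progenitor gate. Its ratios were 0.987, 0.851 and 0.867 in the preadipocyte gate and 0.935, 0.712 and 0.729 in the regulatory gate. These ratios are a description, since both parts came from the same libraries.

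**Figure D5:**
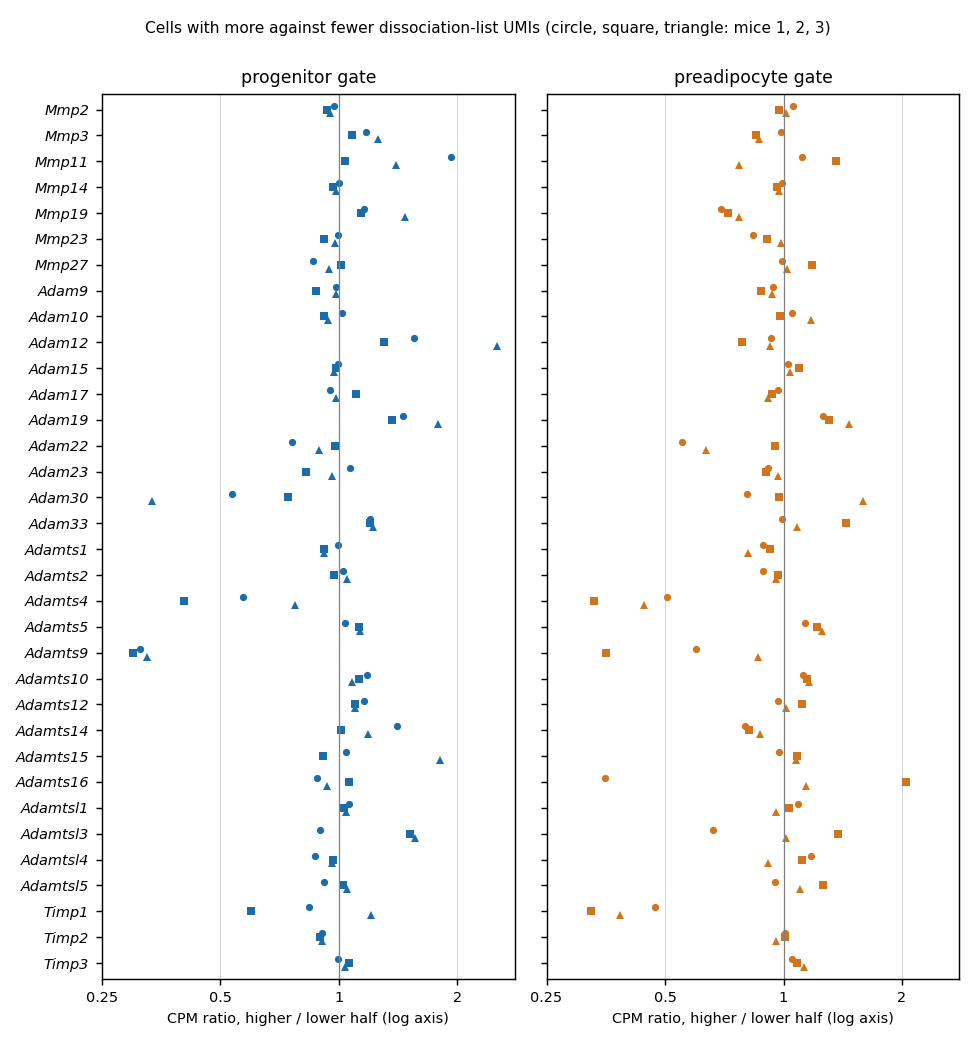
Ratio of CPM in cells above the median dissociation share to CPM in cells below it (x axes, logarithmic), for the progenitor and preadipocyte gates, 1 symbol per mouse. Adamts9 and Adamts4 lie below 1 in all mice of both gates, Timp1 in those of the preadipocyte gate, and Adam19 lies above 1 in both.

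The order of the mice was the same in each gate for some members. Of the 34 named members other than Timp4, 9 were lowest in mouse 2 in each gate (Adam10, Adam12, Adam17, Adam22, Adamts1, Adamts5, Adamts12, Adamtsl3 and Mmp14), and 7 were highest in mouse 2 in each gate (Adam15, Adam30, Adamts2, Mmp2, Mmp3, Mmp11 and Mmp23). A further 7 were highest in mouse 1 in each gate, and mouse 1 and mouse 3 were lowest in each gate for 2 members each. Over all 13258 genes tested, 23.8% were lowest and 15.9% highest in mouse 2 in each gate, and 12.4% were highest in mouse 1. Mouse 1 was lowest for 3.32% of all genes and mouse 3 for 15.1%. Mouse 3 was highest for 2 of the members and for 7.84% of all genes. Whether the members differed from genes in general was not tested. Mouse 2 also had the fewest kept cells, 6414 against 12984 and 15179, and the deepest, with a median of 12192.5 UMIs against 7392.5 and 6667. Its part in these differences was not tested.

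Other genes of matrix proteolysis were counted from a list of 52, of which 43 were tested. Between the progenitor and preadipocyte gates 31 passed, 13 higher and 18 lower in the progenitor gate, against 25 (9 and 16) between the regulatory and preadipocyte gates and 31 (16 and 15) between the regulatory and progenitor gates. Of all genes tested, 56.3%, 25.7% and 43% passed in these comparisons. Pcsk6, a proprotein convertase, was at 336, 309 and 348 CPM in the progenitor gate, 21.6, 23.8 and 34.9 in the preadipocyte gate and 15.4, 12.7 and 14.5 in the regulatory gate, with a difference of 3.71 ± 0.11 (SE) between the progenitor and preadipocyte gates (edgeR adjusted p = 6.66e-11). The progenitor gate stood far above both others. Mme, the cell surface peptidase neprilysin, was highest in the preadipocyte gate, with 221, 130.4 and 217 CPM against 41.9, 20.7 and 25.1 in the progenitor gate and 56.9, 44.6 and 49.6 in the regulatory gate, a difference of -2.66 ± 0.12 (SE) for the progenitor gate (edgeR adjusted p = 1.91e-09).

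Ctsk, the collagen-cutting cathepsin K, was also highest in the preadipocyte gate, at 792, 1171 and 857 CPM against 247, 260.2 and 217 in the progenitor gate and 528, 624 and 471 in the regulatory gate (progenitor against preadipocyte -1.89 ± 0.09 (SE), edgeR adjusted p = 3.16e-09). Cst3, which encodes the cathepsin inhibitor cystatin C, was highest in the regulatory gate, at 3322, 3857 and 3246 CPM against 673, 808 and 647 and 866, 1438 and 1040.0 (regulatory against progenitor 2.29 ± 0.10 (SE), edgeR adjusted p = 4.98e-09). The serine protease inhibitor gene Serpina3n was at 133, 214 and 192 CPM in the regulatory gate and 22.3, 33.2 and 25.2 in the progenitor gate, 2.74 ± 0.09 (SE) apart (edgeR adjusted p = 3.95e-10). Plat and Plau, the plasminogen activators, were lowest in the regulatory gate in each mouse, -1.86 ± 0.07 (SE) and -1.69 ± 0.14 (SE) from the progenitor gate (edgeR adjusted p = 1.13e-09 and 1.18e-06). Fap, fibroblast activation protein, was also lowest in the regulatory gate, at 63.9, 51.7 and 60.4 CPM against 246, 158 and 226 in the preadipocyte gate (-1.75 ± 0.08 (SE), edgeR adjusted p = 3.32e-08).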

How the data were processed

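Droplet 3′ RNA-seq libraries of sorted stromal vascular cells were analysed as 3 replicates. The authors deposited raw UMI counts for each barcode and gene from Cell Ranger (4.0.0 in the file headers, 2.1.1 in the submitters' processing notes) on mm10. Doublets were not removed. Kept cells had over 500 genes and under 5% mitochondrial UMIs, counts were summed per gate and mouse into 9 sums, and edgeR 4.0.16 (R 4.3.3; TMM scaling, quasi-likelihood test, mouse as a block) was fitted to all genes past edgeR's filter, with Benjamini-Hochberg adjustment. The members and gene lists were chosen with earlier results of these data known. Named members reached a mean of 25 CPM in a gate, were Timp genes, or were among the 10 largest rises or falls past the threshold in a comparison, with 1 sign over all mice and 5 CPM in the higher gate. Of the list of other matrix protease genes, up to 4 per direction and comparison qualified. The block is a real pairing, since the gates of a mouse come from 1 library, and deviations of same-mouse sums correlated at 0.153 to 0.676 over 13264 genes. For shares, cells were thinned to 3000 UMIs with the gates kept from the full counts, and between 35 and 803 cells per gate and mouse were too shallow. For fits at 3000 UMIs a cell, the gates were applied again to the thinned counts. Intervals and floors cover counting error only. Alternatives comprised other scalings, DESeq2 1.42.0, no filter, no block, each mouse left out, stricter gates, thinning, a looser mitochondrial limit, and leaving out cells by UMIs, other cell types or dissociation share. A gene of that list that met this rule is not reported here.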

Additional observations from a re-analysis of the deposited data

How the results depend on the processing

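The number of members past the threshold ranged over the alternatives from 31 to 44 between the progenitor and preadipocyte gates, from 19 to 30 between the regulatory and preadipocyte gates and from 24 to 33 between the regulatory and progenitor gates, and from 38 to 41, 22 to 27 and 29 to 30 when 1 mouse was left out. Of all genes tested, 49.4% passed in the setting with 31 members and 36.9% in that with 44. The shares were 11.5% and 14.9% with 19 members and 18.3% with 30, and 29.2% with 24 and 28.2% with 33. With 1 mouse left out they were between 45.6% and 50.7%, 15.6% and 21.4%, and 31.1% and 36.6%. Without the mouse as a block, 36, 19 and 25 members passed, and the calls over all genes went from 7469, 3411 and 5695 to 3992, 1530 and 3128. Other alternatives that moved the calls over all genes by more than 1.5 times gave 2060 without mouse 2, 1841 at 3000 UMIs a cell and 1698 in cells with the lower dissociation share between the regulatory and preadipocyte gates, and 3207 and 3195 in the last settings between the regulatory and progenitor gates.

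Of the single differences, 23 changed sign, each with neither value past the threshold; the cause was not tested. Between the progenitor and preadipocyte gates this was Adamts1 without mouse 1 (-0.237 to 0.0393 over the mice left out). Between the regulatory and preadipocyte gates it was Adam9 with stricter gates (-0.0445) and at 3000 UMIs (-0.0690), Adam17 with the lower dissociation share (0.000995), Adam30 with stricter gates (0.12), Adamts16 without mouse 1 (-2.09 to 0.28 over the mice left out) and with cells of both gates (0.32), and Mmp27 without mouse 2 (-0.378 to 0.0610). Adamts10 changed sign there with RLE factors and DESeq2 (0.0228 and 0.0201), without the block (0.000747), without mouse 2 (-0.0671 to 0.0701), at 3000 UMIs (0.15), with the looser mitochondrial limit (0.0661), with cells of both gates (0.0686) and with the lower dissociation share (0.13). Between the regulatory and progenitor gates it was Adamts2 with stricter gates (0.0138), Adamts9 with the lower dissociation share (-0.32), Adamts14 without mouse 1 (0.0106) and without mouse 3 (0.15; -0.500 without mouse 2), with cells of both gates (0.0565) and with the lower dissociation share (0.49), and Timp4 with DESeq2 (1.17). The small regulatory gate, of 270 to 404 cells a mouse, limits the genes of low level.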
